A study of Mus musculus with 6 samples.

Results

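NF-kB is a family of dimeric transcription factors that sits in the cytoplasm bound to IkB proteins until a receptor signal frees it. In the canonical route, receptor-bound TRAF and RIPK proteins recruit the kinase TAK1 and then the IKK complex, which marks IkB for degradation. In the non-canonical route, the kinase NIK accumulates and drives processing of the p100 precursor. In mast cells the pathway lies downstream of the IgE receptor, Toll-like receptors, the IL-33 receptor ST2 and TNF receptors, and it is known for driving cytokine genes and its own inhibitors. The gene set described here holds 41 genes of this pathway, chosen by name from the 47643 genes of the deposited table. It covers 5 Rel/NF-kB factors, 6 IkB proteins, 4 IKK genes, 7 upstream kinases and adaptors, 7 TRAF and cIAP proteins, 3 CARD-BCL10-MALT1 components, 2 TNF receptors, 6 brakes of the pathway and 1 target gene outside the circuit. All 41 passed the filter on low counts.

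The data are RNA-seq counts of 6 libraries, 3 of embryonic and 3 of adult mast cells sorted out of mouse skin. All mice carried Cdh5CreERT2, a tamoxifen-inducible Cre driven by an endothelial gene, and had been given 4OHT at E7.5. The embryonic cells came from E16.5 skin and were sorted as CD45+ F4/80- CD64- ckit+ ST2+, and the adult cells as CD45+ F4/80- CD64- ckit+ Fcer1+. Both groups had a digestion of 45 min at 37 °C, and adult skin lost its epidermis in an extra Dispase step. Age, the last gate marker and the extra digestion cannot be told apart. The labels do not say whether libraries came from separate animals; the p-values rest on library-to-library spread, which may be technical. Nor do they say whether the Cre label entered the sort or how old the adult mice were.

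Library totals ran from 34122162 to 49813523 counts in genes. Mast cell markers were abundant in every library, with 10 of them summing to 122694 to 133859 CPM (counts scaled to library size, per 1e6) in the embryo and 54325 to 57316 CPM in the adult. Fcer1a, the IgE receptor chain of the adult gate, was at 4.39 to 7.32 CPM in embryonic libraries and at 552 to 906 CPM in adult ones. Markers of other cells moved with the groups. Markers of dendritic or Langerhans cells summed to 46.8 to 66.8 CPM in embryonic libraries and to 2987, 2643 and 1007 CPM in adult libraries 1 to 3, with Cd207 and Flt3 at 0.250 CPM or less in every embryonic library. Macrophage markers summed to 18.2 to 47.6 and 164 to 248 CPM, with the antigens gated against, Adgre1 and Fcgr1, at 3.76 CPM or less. Erythroid markers ran the other way (139 to 322 against 3.68 to 10.5 CPM), and keratinocyte markers were highest in embryonic library 3 (522 CPM, against 29.1 to 111 CPM elsewhere). Fibroblast markers summed to 552 to 683 CPM in embryonic libraries and to 504, 443 and 91.4 CPM in adult libraries 1 to 3. Keratinocyte, endothelial and erythroid sums were also lowest in adult library 3 among the adult libraries. Fewer cells of a type and less RNA per cell cannot be told apart in such bulk samples.

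The comparison of embryonic with adult libraries was made over all 15111 tested genes with edgeR's quasi-likelihood test, and the members were read from that fit. CPM values use TMM-scaled library sizes, log2 differences are embryonic minus adult with their standard error (SE), and a gene is called when its Benjamini-Hochberg adjusted p is under 0.05. Of the 41 members, 21 were higher in adult libraries, 5 were higher in embryonic libraries and 15 were not called. Over all tested genes 31.7% were called higher in adult and 31.2% higher in embryonic libraries, so the members' 51.2% and 12.2% lean toward the adult, while their total of 63.4% called is close to the 63.0% of all genes. The 5 members higher in embryonic cells were Malt1, Birc3, Tnfaip2, Ikbke and Nfkbie. At least 2-fold differences were found for 13 members toward the adult (31.7%, against 20.8% of all tested genes) and for 3 toward the embryo (7.32%, against 17.2%), where 38.0% of all tested genes passed in either direction. The median log2 difference was -0.54 over the members and -0.02 over all tested genes. The libraries of the groups did not overlap for 21 members with adult above and 5 with embryonic above, against 35.5% and 34.5% of all tested genes (70.0% in either direction). These 21 are not the same genes as the 21 called higher in adult. Nfkb2 and Map3k8 were called though their groups overlapped, and Birc2 and Cyld did not overlap but were not called. Most members are well expressed, and level moves these shares: among the 37 members with a mean of at least 10 CPM, 48.6% were higher in adult and 13.5% in embryonic libraries, against 33.8% and 38.5% of the 8383 tested genes at that level.

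**Figure D1:**
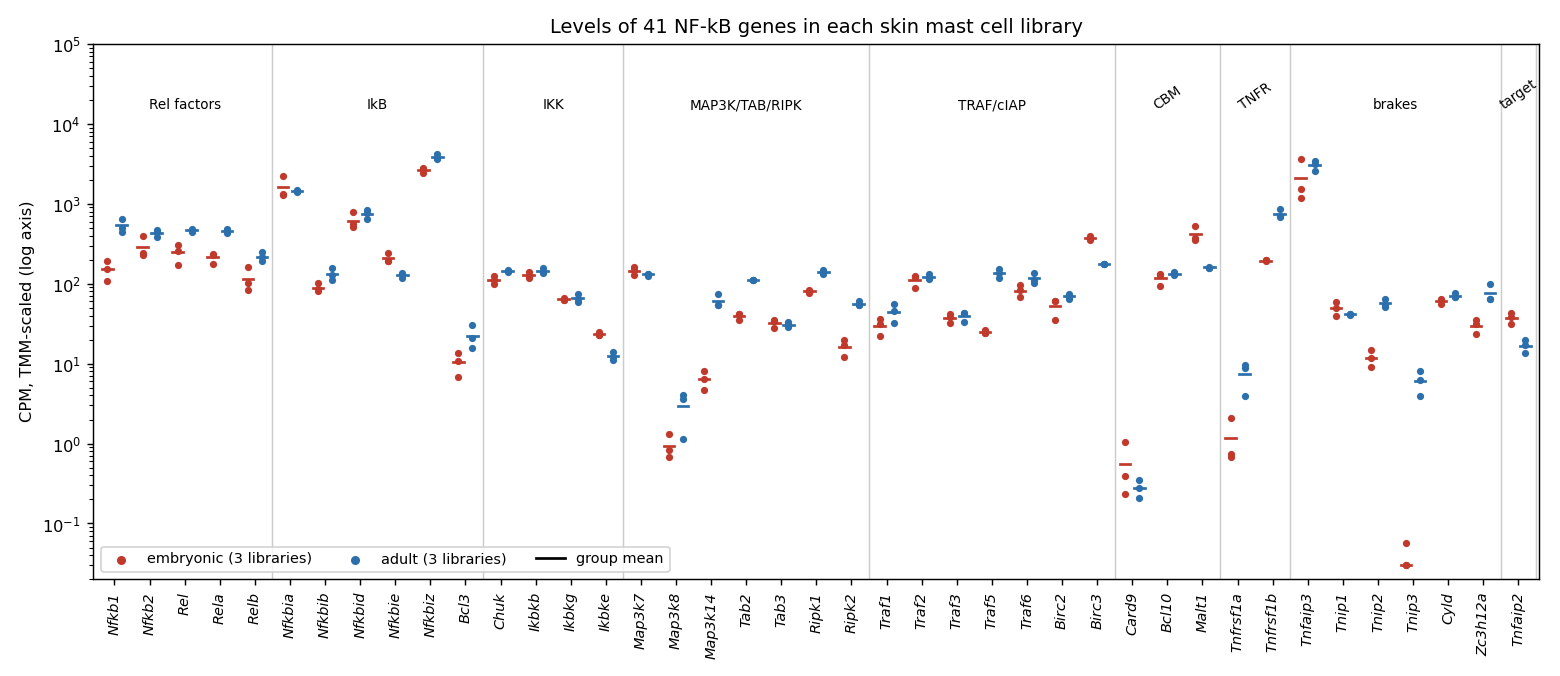
CPM (TMM-scaled, log axis) of the 41 genes by library (3 embryonic in red, 3 adult in blue), ordered by role, with short lines at the group means; points and means under 0.03 CPM are drawn at 0.03. The 5 Rel/NF-kB factors, Map3k14, Traf5, Tnfrsf1b and Tnip2 have adult means above the embryonic ones, and Birc3, Malt1 and Tnfaip2 have embryonic means above the adult ones.

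All 5 genes of the Rel/NF-kB family were higher in adult cells, 1.49-fold to 3.54-fold, where 31.7% of all tested genes were called higher in adult. Nfkb1 encodes p105, the precursor of the p50 subunit (ENSMUSG00000028163.17, chromosome 3, 135584655 to 135691547, GRCm38). It was at 152, 194 and 108 CPM in embryonic libraries 1 to 3 and at 505, 449 and 652 CPM in adult libraries 1 to 3. Every adult library lay above every embryonic one, and the log2 difference was -1.82 ± 0.23 (3.54-fold higher in adult, adjusted p = 0.00016). Rela, the main activating subunit p65 (chromosome 19, 5637483 to 5648130), stood at 233, 230 and 179 CPM in the embryo and at 478, 471 and 429 CPM in the adult. Its groups were also separate, with a 2.15-fold difference (log2 -1.10 ± 0.12, adjusted p = 3.0e-05).

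Rel, the c-Rel subunit best known from lymphocytes (chromosome 11, 23736847 to 23770970), was at 259, 309 and 170 CPM in embryonic and at 458, 489 and 449 CPM in adult libraries. The adult values lay close together and above the more scattered embryonic ones, a 1.89-fold difference (log2 -0.92 ± 0.19, adjusted p = 0.0029). Relb, the partner of p52 in the non-canonical route (chromosome 7, 19606217 to 19629438), ran at 103, 160 and 82.8 CPM against 248, 191 and 213 CPM, also 1.89-fold (adjusted p = 0.0091). Nfkb2, which encodes p100 (chromosome 19, 46304737 to 46312090), had the smallest difference of the family. Its embryonic libraries were at 230, 390 and 245 CPM and its adult ones at 446, 382 and 466 CPM. Embryonic library 2 thus lay inside the adult range, and the 1.49-fold difference (adjusted p = 0.030) was no longer called without embryonic library 1, embryonic library 3, adult library 1 or adult library 3 (adjusted p = 0.076 to 0.098).

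Embryonic library 3 held the lowest level of 4 of the 5 factors among its group, Rela and Rel among them. Of all tested genes, 34.2% were lowest there. The summed level of the family was 976, 1284 and 785 CPM in embryonic libraries and 2135, 1982 and 2209 CPM in adult ones. All 5 factors kept a lower embryonic mean when that library was left out, and all but Nfkb2 kept their call.

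Composition within the family was compared per length, as the share of each gene in the summed counts per exon base. Rela and Nfkb2 were the leading genes in both groups. The share of Nfkb1 was 5.51%, 5.32% and 4.61% in embryonic and 8.75%, 8.44% and 11.5% in adult libraries. That of Nfkb2 was 30.5%, 39.3% and 38.5% in embryonic and 28.3%, 26.3% and 30.2% in adult libraries. Neither gene's groups overlapped, and with 3 libraries against 3 the exact two-sided permutation test gave p = 0.1 for each, the smallest it can give (0.25 after adjustment over the 5 genes). Shares of Rela were 33.2% ± 4.73 and 36.6% ± 2.79 (SD, n = 3; exact permutation p = 0.5). Rel (13.5% in each group) and Relb (12.1% in each group) had nearly equal mean shares in both groups.

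These shares depend on the length used. The deposited table counts 12061 exon bases for Nfkb1, while its longest coding transcript in GENCODE M21 has 4117 bases. With such transcript lengths the share of Nfkb1 averaged 13.2% in embryonic and 22.7% in adult libraries, that of Nfkb2 averaged 27.1% and 19.6%, and that of Rela 29.1% and 29.7%. Nfkb1 lay above Nfkb2 in the adult libraries numbered 1, 2 and 3 by this length and below it in the embryonic ones. By exon length it lay below in all 6. The Nfkb2 transcript, at 3846 bases, is longer than the 3289 exon bases over which its reads were counted, which lowers its level by this length. The order of Nfkb1 and Nfkb2 in adult libraries thus rests on the lengths chosen.

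**Figure D2:**
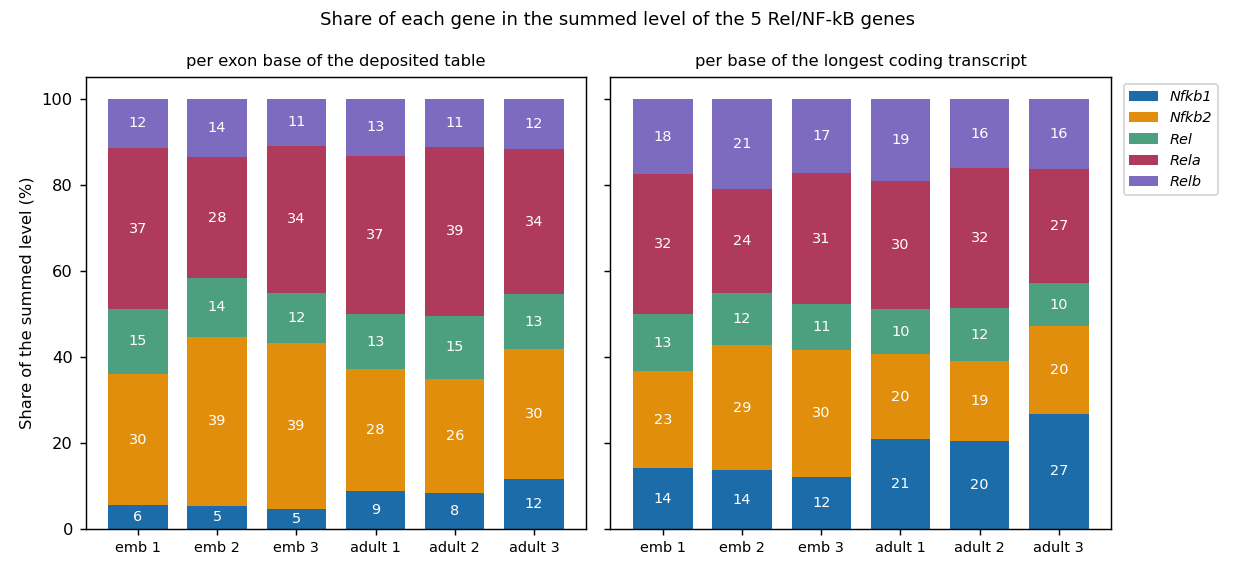
Stacked bars give the share (%) of each Rel/NF-kB gene in the summed level of the 5 genes in each library, per exon base of the deposited table (left) and per base of the longest coding transcript (right). The Nfkb1 share is larger in the adult bars in both panels, 8.44% to 11.5% against 4.61% to 5.51% on the left.

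NF-kB binds a short site known as the kB consensus, and several members of the pathway are textbook targets of it. RefSeq promoter sequences (GRCm38.p6, 250 bases before to 50 after a start site) were found for 34 of the 41 members. At least 1 match to the kB consensus, on either strand, was present in 14 of the 34 (41.2%), against 9.55% of 27025 genes with an entry. The AP-1 motif TGANTCA was in 14.7% of the members and 8.97% of all genes. A match describes letters in these windows and does not show binding, and genes with several start sites have more windows to match. The windows of Nfkb2 and Rel that hold the matches are given here since both genes encode the factors themselves. They run 5′ to 3′ on the gene's strand, with kB matches in capitals, and overlapping matches form a longer run of capitals. They lie at chr19:46304694-46304723 (plus strand) and chr11:23771030-23771089 (minus strand). In GENCODE M21 the first overlaps an annotated exon of Nfkb2 and an exon of an antisense long non-coding RNA, and a further match follows it.
Nfkb2: tcacGGGAATTCCCCccctcggggggccga
Rel: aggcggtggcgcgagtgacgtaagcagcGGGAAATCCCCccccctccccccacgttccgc

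Promoter matches and directions were set side by side without a test. Among the 14 members with a match, 4 had higher adult (28.6%) and 2 higher embryonic levels (14.3%). For the 20 without one these numbers were 12 (60.0%) and 2 (10.0%). Over all tested genes with a promoter entry, 33.7% of the 1367 with a match and 31.7% of the 9633 without one were higher in adult libraries. In the embryonic direction these shares were 31.5% and 33.5%.

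The 6 IkB proteins hold NF-kB back or, in the nucleus, alter what it does there. Of these, 3 were higher in adult cells (Nfkbib, Nfkbiz, Bcl3), 1 was higher in embryonic cells (Nfkbie) and 2 were not called (Nfkbia, Nfkbid). These shares of 50% and 16.7% compare with 31.7% and 31.2% of all tested genes. Nfkbia, the classical inhibitor IkBα (chromosome 12, 55489411 to 55492647), had the highest level per exon kilobase (CPM divided by exon length) of all members, at 1019 ± 330 in embryonic and 912 ± 28.2 in adult libraries (SD, n = 3). In CPM it stood at 1282, 1332 and 2209 in the embryo and at 1487, 1400 and 1430 in the adult. Embryonic library 3 was above all adult libraries and the other two below them, so the groups overlapped (log2 0.16, 95% interval -0.29 to 0.61, adjusted p = 0.50). Without embryonic library 3 the log2 difference was -0.09 (adjusted p = 0.47).

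Nfkbie, IkBε (chromosome 17, 45555716 to 45563169), went the other way from the factors. It was at 190, 195 and 244 CPM in embryonic and at 134, 137 and 117 CPM in adult libraries. No embryonic library reached down to the adult values, and the gene was 1.62-fold higher in the embryo (log2 0.70 ± 0.12, adjusted p = 0.00065). Nfkbib, IkBβ, averaged 89.4 ± 10.2 CPM in the embryo and 133 ± 23.8 CPM in the adult, a 1.49-fold difference (adjusted p = 0.0054). Since 16.4% of its exon bases lie over exons of antisense genes and counting ignored strand, its level may include their reads. Nfkbib was at 159, 127 and 112 CPM in adult libraries 1 to 3. It was lowest in the same adult library as the dendritic, macrophage and fibroblast markers, whose part was not tested.

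Nfkbiz, the inducible nuclear IkBζ (chromosome 16, 55811375 to 55838899), was the most counted member. It stood at 2696, 2420 and 2788 CPM in embryonic and at 3605, 3701 and 4197 CPM in adult libraries. The groups were separate, 1.46-fold higher in the adult (log2 -0.54 ± 0.11, adjusted p = 0.0016). Bcl3, a nuclear IkB that works with p50 and p52 homodimers, was at 10.6, 13.7 and 6.82 CPM against 30.3, 21.2 and 15.5 CPM (2.16-fold higher in adult, adjusted p = 0.012). Adult library 3, with the lowest adult Bcl3, also had the lowest dendritic, macrophage and fibroblast markers, whose part was not tested. Nfkbid, IkBNS, was at 511, 554 and 787 CPM against 762, 828 and 638 CPM and overlapped (log2 -0.27, 95% interval -0.65 to 0.12, adjusted p = 0.20), but was called higher in adult without embryonic library 3 (log2 -0.44, adjusted p = 0.015).

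Nfkbia and Nfkbie are shown with their upstream windows because the first is the most abundant member per exon kilobase and the second went in the opposite direction to the factors. The Nfkbia window is the last 62 bases before its start at chr12:55492648-55492709 (minus strand), and that of Nfkbie lies at chr17:45555570-45555629 (plus strand). Capitals again mark the kB matches.
Nfkbia: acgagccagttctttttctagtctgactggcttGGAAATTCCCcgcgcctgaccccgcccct
Nfkbie: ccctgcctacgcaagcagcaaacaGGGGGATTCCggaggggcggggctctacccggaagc

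**Figure D3:**
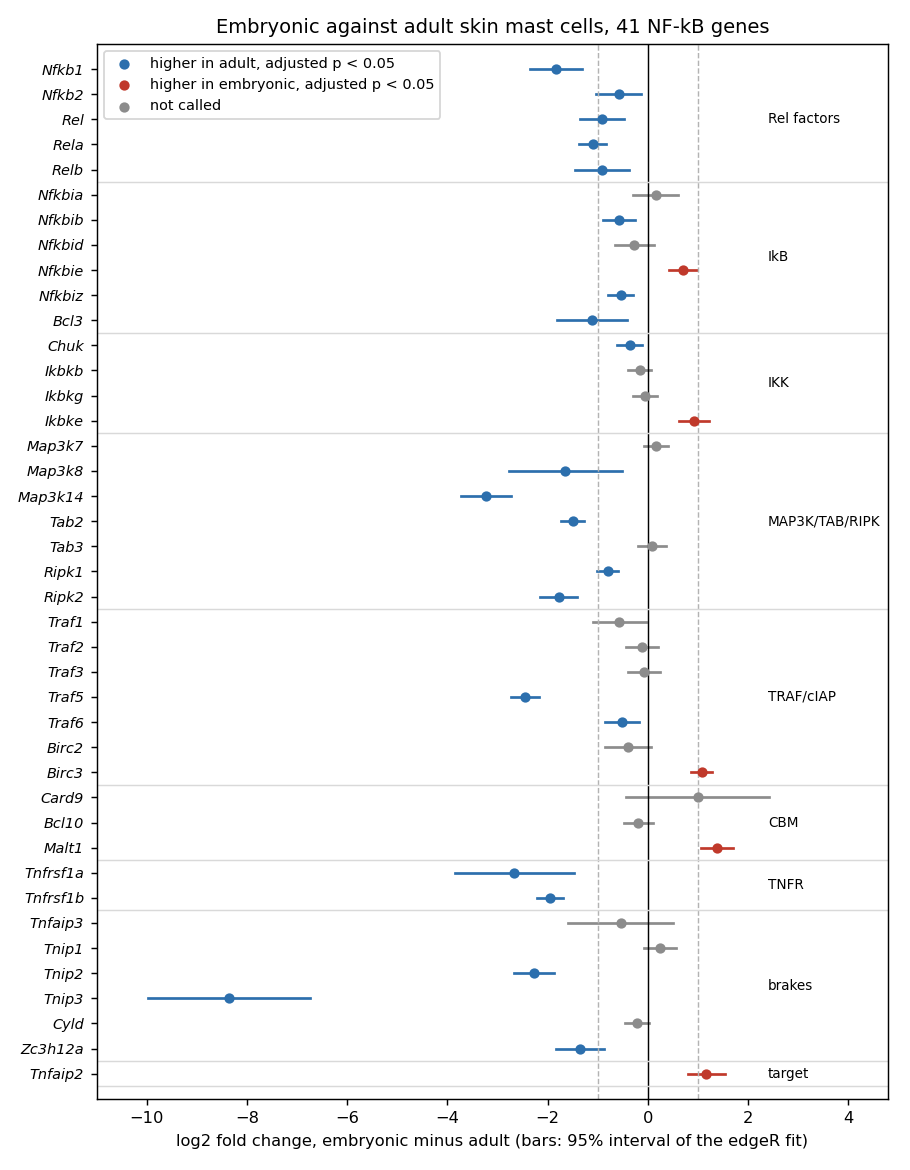
Log2 fold change (embryonic minus adult) of each of the 41 genes with its 95% interval from the edgeR fit, blue for higher in adult, red for higher in embryonic, grey for not called, dashed lines at 2-fold. The 21 blue points lie left of 0 and the 5 red points right of it; the point of Tnip3 rests on 2 embryonic counts and its place depends on the prior count.

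The IKK complex consists of the kinases IKKα and IKKβ and the scaffold NEMO. Its genes differed little. Chuk, IKKα, stood at 98.1, 112 and 126 CPM in the embryo and at 147, 146 and 139 CPM in the adult, where it was 1.28-fold higher (adjusted p = 0.016). This call was lost without embryonic library 1 or 2 (adjusted p = 0.078 and 0.067). Ikbkb, IKKβ, had a log2 difference of -0.16 (95% interval -0.39 to 0.07) and Ikbkg, NEMO, one of -0.06 (-0.30 to 0.18), so that differences of 2-fold lie outside both intervals. Ikbke, the IKK-related kinase IKKε (chromosome 1, 131254343 to 131279606), was at 22.8, 24.7 and 23.0 CPM in embryonic and at 14.0, 11.1 and 12.0 CPM in adult libraries. The groups were far apart relative to their spread, 1.89-fold higher in the embryo (log2 0.92 ± 0.14, adjusted p = 0.00022).

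Among the kinases and adaptors that act before IKK, 5 of 7 were higher in adult cells (Map3k8, Map3k14, Tab2, Ripk1 and Ripk2). None was higher in embryonic cells, and Map3k7 and Tab3 were not called. The adult share of 71.4% compares with 31.7% of all tested genes, and the embryonic share of 0% with 31.2%. Map3k14 encodes NIK, the kinase that defines the non-canonical route (ENSMUSG00000020941.7, chromosome 11, 103219762 to 103267472). It was at 4.68, 6.46 and 8.19 CPM in embryonic and at 54.4, 54.5 and 73.5 CPM in adult libraries. The lowest adult library was several times above the highest embryonic one, and the difference was 9.43-fold (log2 -3.24 ± 0.22, adjusted p = 2.5e-06). Within the adult group its level was highest in library 3, where dendritic, macrophage and fibroblast markers were lowest. The part of those markers in the result was not tested.

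Ripk2, the kinase that NOD receptors use (chromosome 4, 16122733 to 16163647), was at 17.1, 19.6 and 12.3 CPM in the embryo and at 53.7, 60.0 and 54.4 CPM in the adult. Its adult values were tightly grouped, 3.43-fold above the embryonic ones (adjusted p = 1.1e-05). Tab2, an adaptor that brings TAK1 to ubiquitin chains (chromosome 10, 7905653 to 7956230), stood at 41.2, 42.2 and 34.9 CPM against 112, 112 and 110 CPM. This was a 2.82-fold difference with almost no spread among adult libraries (log2 -1.50 ± 0.10, adjusted p = 1.4e-06). Its relative Tab3 was at 32.4 ± 3.64 and 30.7 ± 2.53 CPM (log2 0.08, 95% interval -0.20 to 0.35, adjusted p = 0.61), and Map3k7, TAK1 itself, at 146 ± 18.0 and 131 ± 4.15 CPM (log2 0.16, 95% interval -0.08 to 0.40, adjusted p = 0.23). Without embryonic library 3, Map3k7 was called slightly higher in the embryo (log2 0.29, adjusted p = 0.030).

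Ripk1, the scaffold kinase of TNF receptor 1, averaged 80.1 ± 2.95 CPM in the embryo and 139 ± 8.40 CPM in the adult, a 1.74-fold difference (adjusted p = 4.5e-05). Of its exon bases 38.3% are shared with neighbouring gene models, chiefly the antisense Serpinb6a, so its level is uncertain. Map3k8, the kinase TPL2, was barely detected, with a total of 125 counts in the embryonic group and 402 in the adult group. In CPM it was at 1.31, 0.679 and 0.834 against 3.62, 4.11 and 1.16, with adult library 3 inside the embryonic range. The 3.13-fold difference (adjusted p = 0.016) was not called without embryonic library 2, adult library 1 or adult library 2 (adjusted p = 0.060 to 0.072). Map3k8 was lowest in the same adult library as the dendritic, macrophage and fibroblast markers, and their part in the result was not tested.

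The TRAF adaptors and cIAP ubiquitin ligases link receptors to these kinases. Traf5 and Traf6 were higher in adult cells, Birc3 was higher in embryonic cells, and Traf1, Traf2, Traf3 and Birc2 were not called. The adult share of 28.6% was near the 31.7% of all tested genes, and the embryonic share was 14.3% against 31.2%. Traf5, an adaptor of several TNF receptor family members (chromosome 1, 191997205 to 192092559), was at 24.3, 26.4 and 23.9 CPM in embryonic and at 154, 136 and 117 CPM in adult libraries. It had the smallest adjusted p of all members, with a 5.46-fold difference (log2 -2.45 ± 0.12, adjusted p = 1.7e-07). Among adult libraries Traf5 was lowest in library 3, like the dendritic, macrophage and fibroblast markers, whose part was not tested. Traf6, the adaptor of Toll-like and IL-1 family receptors, averaged 82.2 ± 14.0 CPM in the embryo and 118 ± 17.9 CPM in the adult (1.43-fold, adjusted p = 0.013), and was not called without embryonic library 2, embryonic library 3 or adult library 2 (adjusted p = 0.052 to 0.063).

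Birc3, cIAP2 (chromosome 9, 7848699 to 7873186), was at 369, 401 and 354 CPM in embryonic and at 178, 177 and 178 CPM in adult libraries. No embryonic library came near the adult level, and the difference was 2.11-fold (log2 1.08 ± 0.09, adjusted p = 5.9e-06). Its neighbour and close paralog Birc2, cIAP1, was at 35.3, 61.5 and 61.0 CPM against 64.7, 68.0 and 75.2 CPM. That gene leaned toward the adult without passing the test (log2 -0.40, 95% interval -0.86 to 0.06, adjusted p = 0.11). Traf2, which carries the cIAPs to receptors, had a log2 difference of -0.12 (-0.43 to 0.19), and Traf3, which with them keeps NIK low, one of -0.08 (-0.40 to 0.23). Traf1, itself a known NF-kB target, was at 22.5, 31.2 and 36.4 CPM against 56.1, 31.9 and 45.3 CPM with overlapping groups (log2 -0.57, 95% interval -1.10 to -0.03, adjusted p = 0.062). It was called without embryonic library 3 (adjusted p = 0.041) or adult library 2 (adjusted p = 0.012), by DESeq2 (adjusted p = 0.015), and with a filter of at least 1 count (adjusted p = 0.00045).

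The CARD-BCL10-MALT1 complex carries signals from antigen and IgE receptors to IKK. Malt1, its paracaspase (chromosome 18, 65430963 to 65478823), was at 357, 523 and 374 CPM in embryonic and at 159, 162 and 160 CPM in adult libraries. Every embryonic library lay well above the adult ones, and the fitted difference was 2.60-fold (log2 1.38 ± 0.14, adjusted p = 2.3e-05), the largest toward the embryo among the members called. Bcl10, its partner, was at 129, 131 and 93.5 CPM against 129, 142 and 132 CPM with overlapping groups (log2 -0.19, 95% interval -0.48 to 0.11, adjusted p = 0.25). Card9, an adaptor of myeloid lectin receptors, had 75 counts in embryonic libraries, 50 of them in library 3, and 37 in adult libraries, and was not called (log2 0.996, adjusted p = 0.20; log2 0.20 without embryonic library 3).

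Both TNF receptors were higher in adult cells, where 31.7% of all tested genes were called higher in adult. Tnfrsf1b, TNF receptor 2 (chromosome 4, 145213463 to 145246870), was at 191, 196 and 198 CPM in embryonic and at 709, 675 and 872 CPM in adult libraries. The embryonic values were nearly identical, and the difference was 3.86-fold (log2 -1.95 ± 0.12, adjusted p = 5.4e-07). Tnfrsf1a, TNF receptor 1 (chromosome 6, 125349362 to 125362484), was far less abundant, at 0.687, 0.736 and 2.08 CPM against 9.61, 8.88 and 3.92 CPM. Per exon kilobase, adult Tnfrsf1b averaged 197 ± 27.5 and adult Tnfrsf1a 2.88 ± 1.19 (SD, n = 3). The Tnfrsf1a difference was 6.33-fold (log2 -2.66 ± 0.52, adjusted p = 0.0019), and it grew to a log2 of -3.35 without embryonic library 3. Adult library 3, where dendritic, macrophage and fibroblast markers were lowest among adult libraries, also had the lowest adult Tnfrsf1a. Their part in this result was not tested.

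Ubiquitin-editing proteins and an RNA-degrading enzyme form the brakes of the pathway. Of 6, 3 were higher in adult cells (Tnip2, Tnip3, Zc3h12a) and 3 were not called (Tnfaip3, Tnip1, Cyld). The adult share of 50% compares with 31.7% of all tested genes, and the embryonic share of 0% with 31.2%. Tnfaip3, the inducible ubiquitin editor A20 (chromosome 10, 19000910 to 19015657), was at 1175, 1533 and 3591 CPM in embryonic and at 2601, 3176 and 3404 CPM in adult libraries. The third embryonic library exceeded all adult ones while the other two lay below them. Across all libraries the log2 difference was -0.54 ± 0.43 (95% interval -1.60 to 0.51, adjusted p = 0.31). Without embryonic library 3 it was -1.13 and called (adjusted p = 8.0e-05), so this call was decided by 1 library.

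Tnip1, Tnip2 and Tnip3 encode the 3 ABIN proteins, ubiquitin-binding partners of A20, and the family was split. Tnip2 (chromosome 5, 34496087 to 34513991) was at 9.10, 14.6 and 11.6 CPM in embryonic and at 64.3, 51.5 and 54.5 CPM in adult libraries. The groups lay well apart, 4.83-fold higher in the adult (log2 -2.27 ± 0.18, adjusted p = 3.6e-06). Tnip3 (chromosome 6, 65590398 to 65634040) had 0, 2 and 0 counts in embryonic libraries and 308, 350 and 150 counts in adult libraries. The ratio of adult to embryonic counts, scaled by library size, was 378 (95% counting interval 104 to 3123, counting error only; adjusted p = 6.7e-06). At 6.19, 8.07 and 3.94 CPM in the adult it stayed a low-level gene, again lowest in adult library 3 with the dendritic, macrophage and fibroblast markers. The part of those markers was not tested.

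Tnip1 ran at 49.6, 58.8 and 39.2 CPM against 41.7, 40.7 and 42.2 CPM and was not called (log2 0.25, 95% interval -0.07 to 0.56, adjusted p = 0.16), but was called higher in the embryo without embryonic library 3 (log2 0.43, adjusted p = 0.0097). Zc3h12a, the ribonuclease Regnase-1 that degrades cytokine mRNA (chromosome 4, 125118423 to 125127840), was at 31.8, 34.9 and 23.3 CPM against 64.7, 64.8 and 101 CPM. All adult libraries lay above the embryonic ones, 2.56-fold (adjusted p = 0.00055). Cyld, a deubiquitinase of the pathway, was at 61.1 ± 5.18 and 70.7 ± 4.59 CPM (log2 -0.21, 95% interval -0.45 to 0.02, adjusted p = 0.10).

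The upstream windows of Tnfaip3, Tnip1 and Tnip3 follow because these brakes differed in their results and all hold kB matches (capitals). They lie at chr10:19015411-19015540 (minus strand), chr11:54962960-54963020 (minus strand) and chr6:65590318-65590378 (plus strand). Tnip1 has 3 overlapping matches in a single run, Tnfaip3 has 2 separate ones and Tnip3 has 1.
Tnfaip3: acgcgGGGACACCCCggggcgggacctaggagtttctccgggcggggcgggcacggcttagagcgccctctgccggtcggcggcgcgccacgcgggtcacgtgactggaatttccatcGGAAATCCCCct
Tnip1: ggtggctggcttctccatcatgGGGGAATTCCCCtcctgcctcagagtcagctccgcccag
Tnip3: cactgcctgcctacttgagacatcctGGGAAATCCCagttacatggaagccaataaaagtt

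Tnfaip2, a TNF-induced gene that is a target rather than a regulator (chromosome 12, 111442469 to 111455018), was at 38.1, 31.7 and 43.4 CPM in embryonic and at 19.7, 13.5 and 17.0 CPM in adult libraries. It was thus 2.25-fold higher in the embryo with separate groups (log2 1.17 ± 0.17, adjusted p = 0.00019), opposite to most targets listed next. Its RefSeq promoter holds 1 kB match, shown in capitals at chr12:111442631-111442660 (plus strand), a window that overlaps an annotated Tnfaip2 exon in GENCODE M21.
Tnfaip2: attttaGGAGGGCCCCtccagggtcgggac

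Several of these results turned on embryonic library 3, so its profile was read across the members. Among the embryonic libraries it was lowest for 20 of the 41 members and highest for 12. These are 48.8% and 29.3%, against 34.2% and 35.9% of all tested genes. Relative to the mean of embryonic libraries 1 and 2, library 3 held 2.65 times the Tnfaip3, 1.69 times the Nfkbia and 1.48 times the Nfkbid. It held only 0.599 times the Rel, 0.622 times the Nfkb1 and 0.630 times the Relb. Rela and Nfkb2 were at 0.7745 and 0.791 times. Other inhibitors were lower or nearly level there, with Bcl3 at 0.560 times, Zc3h12a at 0.6995 times, Tnip1 at 0.723 times and Nfkbiz at 1.09 times the mean of the other two, and Nfkbie was at 1.27 times. The same library had the highest embryonic level of all 23 immediate early genes, the fast-responding genes such as Fos and Egr2, whereas 35.9% of all tested genes were highest there. Their summed level was 16030, 19291 and 32095 CPM in embryonic libraries 1 to 3 and 43853, 53256 and 57263 CPM in adult libraries 1 to 3. Hspa1a, a heat shock gene on that list, was at 5.13 times the mean of the other two embryonic libraries. Many markers of other cells were also high there among embryonic libraries. All 5 tested keratinocyte, all 5 erythroid and all 6 endothelial markers had their highest embryonic level in it, as did 8 of 9 macrophage markers. Of 9 dendritic markers 7 were highest there, but their sum was lowest there (50.4, 66.8 and 46.8 CPM in embryonic libraries 1 to 3). Lymphocyte markers went the other way, with 4 of 5 tested ones lowest in library 3, against 34.2% of all tested genes. The macrophage markers summed to 18.2, 27.0 and 47.6 CPM in embryonic libraries 1 to 3, and Card9 and Tnfrsf1a were at 3.30 and 2.93 times the mean of the other two in library 3. The part of any of these in the results was not tested. Without embryonic library 3, the adult was higher for 22 members and the embryo for 7, against 29.3% and 29.2% of the 15760 genes tested in that fit.

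**Figure D4:**
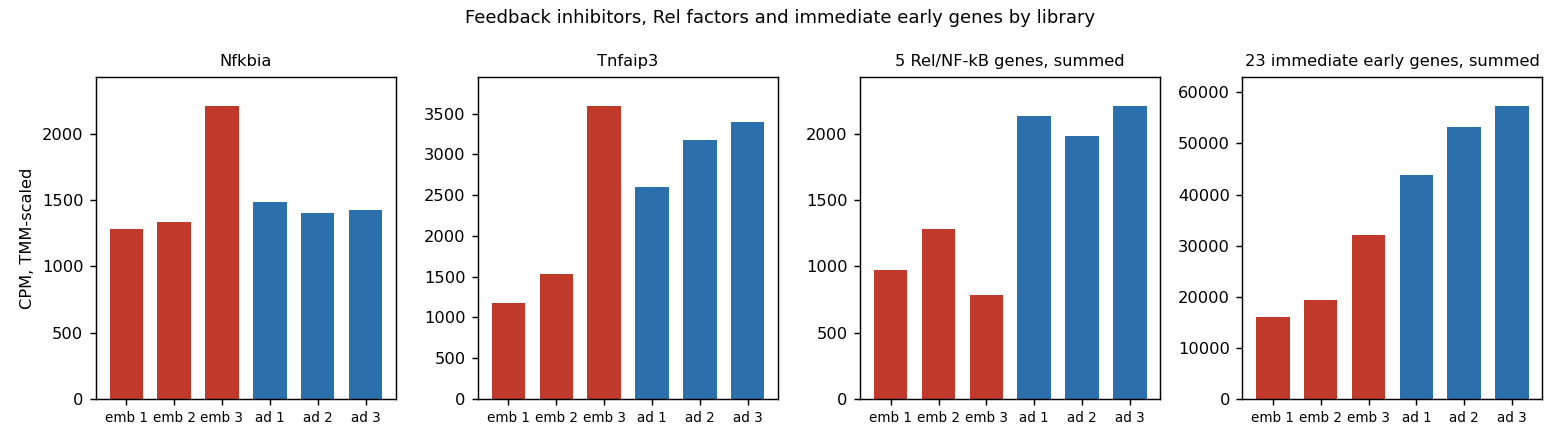
Bars give CPM (TMM-scaled) of Nfkbia, of Tnfaip3, of the 5 Rel/NF-kB genes summed and of 23 immediate early genes summed, in embryonic (red) and adult (blue) libraries, each panel on its own axis from 0. Embryonic library 3 is the highest of all 6 for Nfkbia and Tnfaip3 (2209 and 3591 CPM) and the lowest of all 6 for the summed factors (785 CPM).

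Other genes of the pathway were read from lists of receptors, ligands, further signalling components and targets. Of 44 tested signalling components outside the members, 19 had higher adult levels and 12 higher embryonic ones (43.2% and 27.3%, against 31.7% and 31.2% of all tested genes; median log2 -0.23). Tollip, an adaptor that dampens Toll-like receptor signals, averaged 386 ± 29.6 CPM in the embryo and 1623 ± 119 CPM in the adult (4.21-fold, adjusted p = 2.2e-07). Peli1, Irak3 and Irak2 were 3.80-fold, 6.97-fold and 3.31-fold higher in adult cells, of which Irak3 is another dampener. In the embryo Tradd, the death domain adaptor of TNF receptor 1, was 2.97-fold higher at 45.2 ± 3.01 against 15.2 ± 1.88 CPM (adjusted p = 3.7e-06). Nkiras2, Irak4 and Itch were 2.36-fold, 2.32-fold and 1.92-fold higher there.

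Of 20 tested receptors that feed the pathway, 8 had higher adult and 7 higher embryonic levels, and these shares of 40% and 35% lie near the 31.7% and 31.2% of all tested genes. Il1rap, the shared chain of the IL-1 and IL-33 receptors, was at 9.36, 12.2 and 9.13 CPM in embryonic and at 261, 307 and 311 CPM in adult libraries. This 28.7-fold difference (adjusted p = 1.0e-08) was the largest of the receptors named here with over 10 CPM in either group. Tnfrsf12a, the TWEAK receptor, was 25.2-fold higher in adult cells. Ltbr, the lymphotoxin β receptor that signals through NIK, was at 2.02 ± 0.646 and 28.7 ± 1.11 CPM, 14.1-fold higher in adult cells (adjusted p = 3.8e-07). Il1rl1, the ST2 gene on whose product embryonic cells were gated, was 1.72-fold above its adult level. Tnfrsf18 and Il18rap were also higher in the embryo, at 12.6 CPM or less in every library.

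Of 9 tested ligands the adult was higher for 5 and the embryo for 1 (55.6% and 11.1%, against 31.7% and 31.2% of all tested genes). Tnf, the ligand of both TNF receptors and a target of NF-kB, was at 218, 197 and 175 CPM in embryonic and at 1051, 1208 and 1005 CPM in adult libraries. The groups were far apart, 5.54-fold (log2 -2.47 ± 0.12, adjusted p = 1.6e-07). Lta, lymphotoxin α, was higher in the embryo at 1.53 CPM or less in every library (adjusted p = 0.037).

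Textbook NF-kB targets outside the members were mostly higher in the adult, with 22 of 37 higher there and 3 higher in the embryo (median log2 -1.19), against the 31.7% and 31.2% of all tested genes. Csf1, the macrophage growth factor, was at 48.3, 59.7 and 55.9 CPM against 1226, 1310 and 1371 CPM (23.8-fold, adjusted p = 6.3e-09). Gch1, which makes the tetrahydrobiopterin cofactor, was 19.6-fold higher, and Plek 9.69-fold. Bcl2l1, Ebi3 and Ptgs2 were 1.73-fold, 1.99-fold and 2.75-fold higher in the embryo, and Ptgs2, cyclooxygenase 2, was highest there in library 3 (121 CPM, against 45.3 and 68.9 CPM in libraries 1 and 2). Immediate early genes, which other pathways also induce, leaned the same way, with 16 of 23 higher in the adult and 1 in the embryo. These are 69.6% and 4.35%, against 31.7% and 31.2% of all tested genes (median log2 -1.62 and -0.02). The part of immediate early genes in the targets' difference was not tested.

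**Figure D5:**
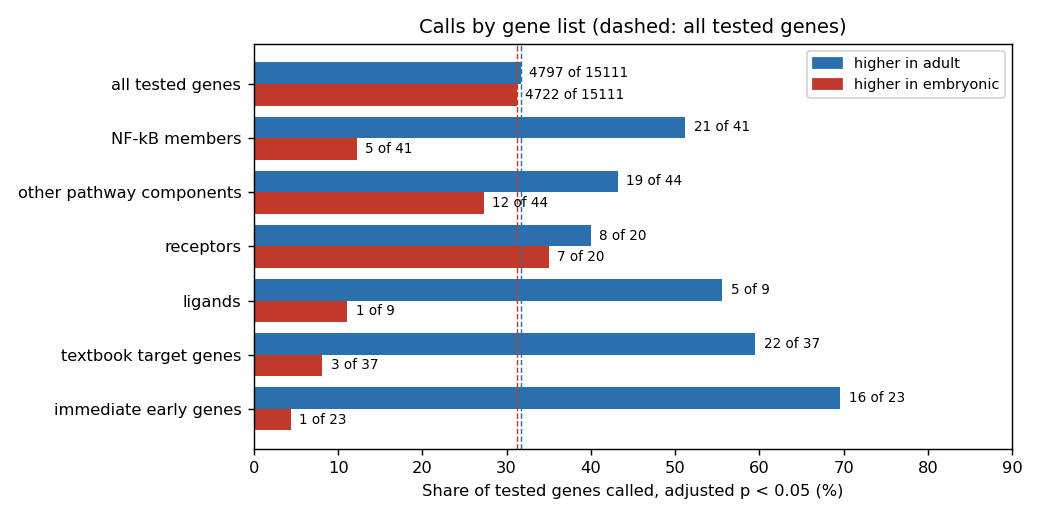
Bars give the share (%) of the tested genes of each list called higher in adult (blue) or in embryonic libraries (red), with counts beside them and dashed lines at the shares of all tested genes (31.7% and 31.2%). The 41 members, textbook targets and immediate early genes have 51.2%, 59.5% and 69.6% of their tested genes higher in adult libraries.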

How the data were processed

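The 6 libraries, 3 of embryonic and 3 of adult skin mast cells, were grouped by their titles. The deposited table holds read counts, one value per gene and library. Reads were counted over exons of GENCODE M9 by featureCounts 1.5.0-p1 without strand (setting 0), ignoring marked duplicates, per the file headers; this can cap very abundant genes. Per the submitters' processing notes, STAR, edgeR and GRCm38 (mm10) were used; the sources used here do not give the versions of STAR and of that edgeR, nor whether duplicates were marked. Per the labels' protocols, cDNA was amplified with SMART-Seq v4 and tagmented with Nextera XT; no molecular identifiers are described. The interval of the Tnip3 count ratio covers counting error only, and the log2 intervals come from the edgeR fit and include the spread between libraries.

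Symbols were matched by gene ID to GENCODE M21 (47224 of 47643 genes; 419 unmatched). The table also gives exon length, used for levels per exon kilobase. Tests used edgeR 4.0.16 in R 4.3.3 on all 6 libraries (TMM, filterByExpr with a minimum count of 10, robust quasi-likelihood, Benjamini-Hochberg over 15111 genes, threshold 0.05). The biological coefficient of variation was 22.5%. Libraries of a group differed beyond counting noise (chi-square per degree of freedom 25.1 to 64.7), and each counted as 1 replicate.

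The members and all gene lists were chosen with earlier results of these data known. All members are named; of each other list, up to 4 genes with the smallest adjusted p in each direction and the most abundant gene per exon base could be named, and some are not reported. Promoters came from RefSeq (GRCm38.p6). Alternatives were RLE and upper quartile scaling, other low-count filters, DESeq2 1.42.0, limma-voom (3.58.1), a replicate block, a threshold of 0.01, omitted libraries, and other lengths for the family shares. The test was tried on simulated counts.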

Additional observations from a re-analysis of the deposited data

How the results depend on the processing

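Counts of members called moved little. Under RLE or upper quartile scaling, other low-count filters, DESeq2, limma-voom and edgeR without robust estimation, the adult was higher for 21 to 23 members and the embryo for 5. Over all tested genes, 19.2% to 34.6% were higher in adult and 18.9% to 34.7% in embryonic libraries. Both shares were lowest with the filter of at least 1 count. The filter of at least 1 count added Traf1 and Birc2. With a replicate block the numbers were 22 and 5 (29.6% and 29% of all tested genes), with Birc2 added (log2 -0.44, adjusted p = 0.044). Same-numbered libraries did not deviate together (correlations -0.11, -0.09 and -0.12), and no library correlated best with its own number, so the numbers are read as names only. Leaving out 1 library at a time gave 18 to 22 and 5 to 7 members, and 11 to 14 and 3 to 4 with at least 2-fold differences. In these fits 28.1% to 29.3% of all tested genes were called higher in adult and 27.5% to 29.2% higher in embryonic libraries. At an adjusted p under 0.01 the counts were 16 and 5, against 25.2% and 25% of all tested genes. A fit without both libraries numbered 3, added after the data were seen, gave 22 and 6, against 30.1% and 28.3% of all tested genes. The median of all tested genes was -0.02 with TMM and with RLE, and -0.04 with upper quartile scaling.

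Members with small differences changed sign in some fits. Leaving out 1 library at a time, log2 differences ran from -0.0925 to 0.32 for Nfkbia, -0.13 to 0.033 for Ikbkg, -0.16 to 0.073 for Traf2, -0.20 to 0.062 for Traf3 and -0.24 to 0.002 for Bcl10. Without both libraries numbered 3, Nfkbia was at -0.14 and Traf3 at 0.088. Differences in family share (percentage points, embryonic minus adult) moved with length: without division by length Nfkb1 went from -4.43 to -10.5, Rel from 0.04 to 1.94, Rela from -3.43 to -0.33 and Relb from -0.01 to 0.87, and with transcript length, added after the data were seen, Nfkb1 to -9.42, Rela to -0.53 and Relb to 1.43. Leaving out 1 library gave -5.53 to -0.87 for Rela, -0.76 to 0.92 for Rel and -0.81 to 0.62 for Relb. Depth limits Tnip3, Card9, Map3k8 and Tnfrsf1a, which rest on few counts in at least 1 group.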
